A study of Mus musculus with 6 samples.

Results

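Acinar and islet transcription factors are DNA-binding proteins that establish and maintain the secretory cells of the pancreas. A list of 10 such genes was examined in spleen arrays in which genes for pancreatic digestive enzymes were brighter after lead exposure, to see whether the signals of the regulators were raised beside those of the enzymes. The list holds 4 acinar regulators (Ptf1a, Rbpjl, Bhlha15 and Nr5a2) and 6 islet regulators (Pdx1, Neurod1, Nkx6-1, Nkx2-2, Pax6 and Insm1). All 10 were measured, with 1 probe each, among 17848 genes that had a probe with a single gene symbol.

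Spleens came from 3 female BALB/c mice that received lead (Pb) at 0.1 mM since gestation day 8 and from 3 control female BALB/c mice, all at 21 days of age. Total RNA of each animal was hybridised in 1 colour (Cy5) to a CodeLink mouse whole genome array. The labels give no route of exposure, litter or pooling, so p-values measure only the spread between these samples. The values of Pb replicate 3 were unrelated to those of the same probes elsewhere (r = 0.048 with the control mean, against 0.952 for Pb replicate 1 and 0.679 for Pb replicate 2), and this array was left out. Levels below are log2 intensities of Pb replicates 1 and 2 and of control replicates 1, 2 and 3, after removal of smooth differences that follow the position on the array. The array median is near 0 on this scale. The wider scatter of Pb replicate 2 (scaled median absolute deviation 0.590, against 0.293 in Pb replicate 1 and 0.236 to 0.263 in the controls) limits every comparison. The spleen label was borne out by its markers: the B cell gene Ms4a1 was at 5.69 and 5.70 in Pb spleens, against 5.64, 5.74 and 5.72 in control spleens, and the spleen-patterning factors Tlx1 and Nkx2-3 lay between 2.82 and 3.16 on all 5 arrays.

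In acinar cells the basic helix-loop-helix protein Ptf1a pairs with an E protein and with Rbpj, or in mature cells with its acinar paralog Rbpjl, to form the PTF1 complex, which binds an E-box beside a TC-box in promoters of digestive enzyme genes. Bhlha15 (Mist1) organises the secretory apparatus of acinar cells and is also made in plasma cells, and the nuclear receptor Nr5a2 acts with PTF1 on enzyme genes. In islets Pdx1, Nkx6-1, Nkx2-2, Neurod1, Pax6 and Insm1 drive endocrine differentiation and hormone genes, and several of them also act in neurons.

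The promoter of Rbpjl, the 1 acinar regulator past the filter on dim probes, is shown beside those of 3 enzyme genes that rose in Pb spleens, because E-boxes and TC-boxes are the letters that PTF1 reads. Each run is the 250 bases before the RefSeq start of the gene, 5′ to 3′ on the gene's strand in GRCm38.p6. Capitals mark CANNTG, which reads the same on both strands, and TTTCCC on either strand (written GGGAAA on the opposite one). The windows are chr2:164402944-164403193 (plus strand), chr6:30638968-30639217 (plus strand), chr4:137430521-137430770 (minus strand) and chr3:113258700-113258949 (minus strand).
Rbpjl promoter: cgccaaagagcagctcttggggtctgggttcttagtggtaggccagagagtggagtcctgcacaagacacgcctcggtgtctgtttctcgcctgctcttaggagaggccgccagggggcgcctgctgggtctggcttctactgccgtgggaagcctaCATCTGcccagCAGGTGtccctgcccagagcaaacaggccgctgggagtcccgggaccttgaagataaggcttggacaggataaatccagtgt
Cpa1 promoter: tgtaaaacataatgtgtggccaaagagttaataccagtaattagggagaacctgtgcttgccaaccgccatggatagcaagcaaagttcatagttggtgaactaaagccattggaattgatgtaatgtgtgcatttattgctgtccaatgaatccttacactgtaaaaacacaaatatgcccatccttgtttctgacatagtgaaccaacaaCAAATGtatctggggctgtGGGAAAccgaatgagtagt
Cela3b promoter: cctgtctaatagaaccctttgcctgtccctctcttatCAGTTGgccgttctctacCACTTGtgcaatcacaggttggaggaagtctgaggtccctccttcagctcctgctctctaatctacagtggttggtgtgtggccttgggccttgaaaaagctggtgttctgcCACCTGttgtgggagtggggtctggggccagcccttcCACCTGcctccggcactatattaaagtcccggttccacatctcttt
Amy2a5 promoter: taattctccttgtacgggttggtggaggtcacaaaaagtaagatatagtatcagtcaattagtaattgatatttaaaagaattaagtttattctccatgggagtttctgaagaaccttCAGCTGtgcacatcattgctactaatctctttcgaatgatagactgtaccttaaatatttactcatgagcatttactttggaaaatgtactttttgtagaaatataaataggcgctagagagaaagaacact
Rbpjl held CATCTG and CAGGTG, starting at -93 and -82 from the gene's start, and Cela3b held CACCTG at both -83 and -46. Cpa1 had the motif CAAATG at -38 and a GGGAAA at -19, 13 bases apart, and Amy2a5 had only CAGCTG at -132. Among 32851 promoter windows of this length, 66.2% held CANNTG, 21.9% TTTCCC on either strand and 4.59% both motifs at most 25 bases apart. That pair was found in 6 of 28 windows of exocrine genes and in 0 of 11 windows of the 9 regulators matched by symbol. These 28 windows are not those of the 28 exocrine genes measured below. Prss1, Ctrb1 and Cela3a held the pair but had no probe used here, and Try5 and Spink1 had no window matched. The share thus does not describe the genes that rose. Only the exact letters TTTCCC or GGGAAA were searched, so other forms of a TC-box could be missed. The gtgggaa shortly before CATCTG in the Rbpjl window was not counted for this reason. A match in these letters is a description and not a site of binding.

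None of the regulators passed the adjusted threshold of 0.05. Of the 10, 3 passed the filter on dim probes (Rbpjl, Neurod1 and Insm1) and 0 of these 3 were called, against 0.0572% of the 24464 probes tested being called higher and 0% lower (limma, Benjamini-Hochberg). At an unadjusted p under 0.05 there was 1 of the 3, Rbpjl, against 7.23% of the probes tested. The other 7 had a mean log2 intensity under the filter level of -1.56. Of the 10 regulators, 2 (Rbpjl and Nkx2-2) were brighter on both Pb arrays than on each of the 3 controls, against 13% of all 34949 probes, and 2 (Ptf1a and Pdx1) were dimmer than every control, against 11.9%. Among probes under the filter these shares were 10.7% and 9.89%. The counts of the regulators are near that background. Without the filter 0 of 10 passed an adjusted p of 0.05, as did 0% of all probes, and 2 (Ptf1a and Nkx2-2) had an unadjusted p under 0.05, against 5.84% of all probes (limma). The log2 difference, Pb minus control, was above 0 for 7 of 10, against 53% of all probes, and its median was 0.29, against 0.03 over all probes. Over 589 probes of olfactory and vomeronasal receptor genes, mostly dim, the median was 0.12.

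**Figure D1:**
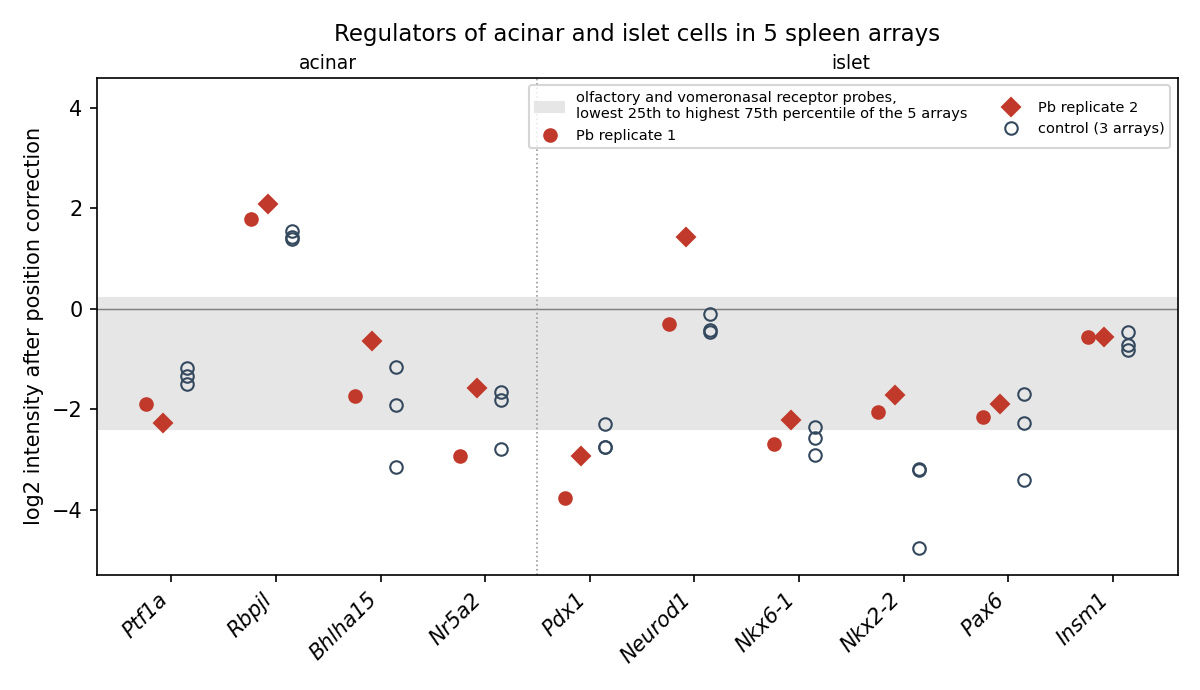
Log2 intensity after position correction (y axis) of each regulator (x axis); filled symbols are the 2 Pb arrays and open circles the 3 control arrays, and the grey band spans the lowest 25th to the highest 75th percentile of 589 olfactory and vomeronasal receptor probes. Rbpjl lies above the band on every array, Neurod1 on Pb replicate 2 alone, and the other 8 regulators lie within or under it.

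Ptf1a, the acinar subunit that defines PTF1, lay lower in Pb spleens. Its levels were -1.89 and -2.27 in Pb spleens, against -1.49, -1.17 and -1.33 in control spleens. The groups did not overlap, and the log2 difference was -0.75 (SE 0.22, limma without the filter, adjusted p = 0.753). In the deposited intensities it had 0.315 and 0.0931 in Pb spleens, against 0.322, 0.408 and 0.414 in control spleens. The order held before position correction too, with Pb replicate 1 close to the lowest control. All of these values are dim. In Pb replicate 2, 133 other probes within 3 array rows and 0.75 of the log2 level of Ptf1a were low as well before correction. Their median against the control mean was -0.99 before correction and 0.18 after it.

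Rbpjl, the acinar partner of Ptf1a, was the brightest of the regulators' probes, although probes differ in how well they bind and brightness cannot rank transcripts. Its levels were 1.79 and 2.09 in Pb spleens, against 1.40, 1.43 and 1.55 in control spleens. Both Pb arrays lay above all controls, by a log2 difference of 0.48 (SE 0.18, 95% confidence interval 0.04 to 0.92), and the call was not made (limma adjusted p = 0.621). The deposited intensities had another order, 3.77 and 0.519 in Pb spleens, against 2.37, 2.56 and 3.12 in control spleens. Pb replicate 2 was thus the lowest array before correction, and the uncorrected log2 difference was -0.93. Around this probe, within 3 array rows and 0.75 of its log2 level, 114 other probes of Pb replicate 2 had a median of -2.95 against the control mean before correction and 0.25 after it. The correction moved Rbpjl by 3.04 in that array and by -0.13 in Pb replicate 1. Without Pb replicate 2 the difference was 0.33 (limma adjusted p = 0.629).

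Bhlha15, the factor of secretory capacity, was at -1.73 and -0.65 in Pb spleens, against -1.15, -1.92 and -3.16 in control spleens. The groups overlapped and the 3 controls were spread widely, with a log2 difference of 0.89 (SE 0.69, limma without the filter, adjusted p = 0.763). Nr5a2, the nuclear receptor, was at -2.92 and -1.58 in Pb spleens, against -1.81, -2.78 and -1.65 in control spleens. The 2 Pb arrays lay on opposite sides of the control mean, and the log2 difference was -0.17 (SE 0.55, adjusted p = 0.939 in the same fit). The platform annotation ties the probes of both genes to expressed sequence tags rather than to RefSeq transcripts.

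Among the islet regulators, Pdx1, which acts in pancreatic progenitors and beta cells, was at -3.76 and -2.93 in Pb spleens, against -2.30, -2.76 and -2.74 in control spleens. Both Pb arrays lay below all controls, with a log2 difference of -0.74 (SE 0.33, limma without the filter, adjusted p = 0.753). This order rests on the correction: the deposited intensities were 0.0917 and 0.292 in Pb spleens, against 0.201, 0.129 and 0.146 in control spleens, and the uncorrected difference was 0.07.

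Nkx2-2, a homeodomain factor needed for beta cells, had the highest difference of the 10. Its levels were -2.06 and -1.72 in Pb spleens, against -4.76, -3.22 and -3.19 in control spleens. Both Pb arrays lay above all controls, with a log2 difference of 1.83 (SE 0.56, limma without the filter, adjusted p = 0.753). The deposited intensities kept that order, at 0.274 and 0.251 in Pb spleens, against 0.0279, 0.104 and 0.109 in control spleens, and the uncorrected difference was 1.86. The probe stayed dim on every array: 28.2% and 37.0% of the receptor probes were dimmer in Pb spleens, against 1.87%, 7.47% and 8.15% in control spleens. With a pseudocount of 0.1 in place of the floor on low values the difference was 0.99. Without control replicate 1, the dimmest array for this probe, it was 1.31.

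Neurod1, a helix-loop-helix factor of islet cells and neurons, was at -0.29 and 1.42 in Pb spleens, against -0.10, -0.41 and -0.47 in control spleens. Pb replicate 2 was high and Pb replicate 1 lay among the controls. The log2 difference was 0.90 (SE 0.49, 95% confidence interval -0.30 to 2.09, limma adjusted p = 0.623). Without Pb replicate 2 it was 0.04, and without Pb replicate 1 it was 1.75 (limma adjusted p = 0.0137, with the lone Pb array assumed to vary like the controls; 2745 probes were called in that fit). The deposited intensities were 0.691 and 0.811 in Pb spleens, against 1.04, 0.801 and 0.715 in control spleens. They overlapped, and the correction raised Pb replicate 2 by 1.73. The 147 probes near it and of like level had a median of -0.55 in that array before correction and 0.46 after it.

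Insm1, a zinc finger factor of endocrine cells, was at -0.57 and -0.55 in Pb spleens, against -0.81, -0.73 and -0.46 in control spleens. The groups overlapped and the interval was among the narrowest, with a log2 difference of 0.11 (95% confidence interval -0.34 to 0.56, limma adjusted p = 0.847). Its deposited intensities were 0.635 and 2.40 in Pb spleens, against 0.595, 0.592 and 0.785 in control spleens. The 113 probes near it stood 2.07 above the control mean in Pb replicate 2 before correction and 0.12 after it.

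Pax6, a paired-box factor of islet cells, eye and brain, was at -2.16 and -1.89 in Pb spleens, against -2.27, -1.70 and -3.42 in control spleens, and the groups overlapped. Its log2 difference was 0.43 after correction and 1.25 before it, where Pb replicate 2 held an intensity of 1.19 among nearby probes with a median of 2.72 above the control mean. Nkx6-1, a homeodomain factor of beta cells, was at -2.70 and -2.21 in Pb spleens, against -2.90, -2.35 and -2.57 in control spleens. It overlapped too, with a log2 difference of 0.15 (95% confidence interval without the filter -0.556 to 0.865).

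**Figure D2:**
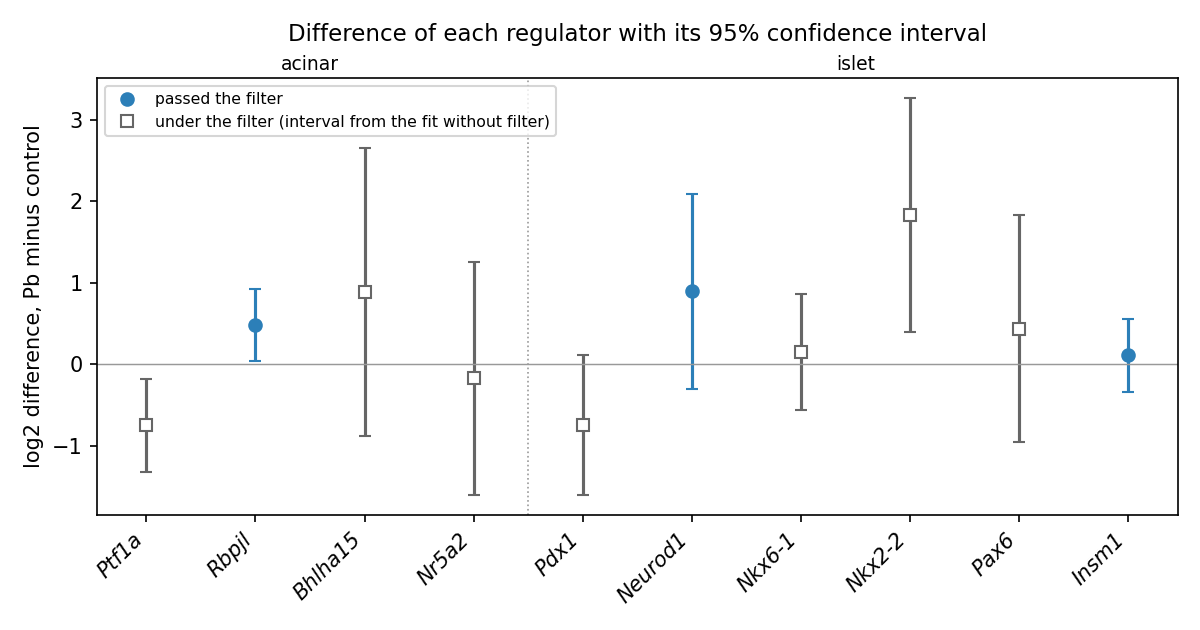
Log2 difference, Pb minus control (y axis), of each regulator (x axis) with its 95% confidence interval from limma on 2 Pb and 3 control arrays; filled circles passed the filter on dim probes and open squares did not, and their intervals come from the fit without it. The estimates run from -0.75 for Ptf1a to 1.83 for Nkx2-2, and the intervals of Bhlha15, Nr5a2, Neurod1, Nkx2-2 and Pax6 are wide.

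**Figure D3:**
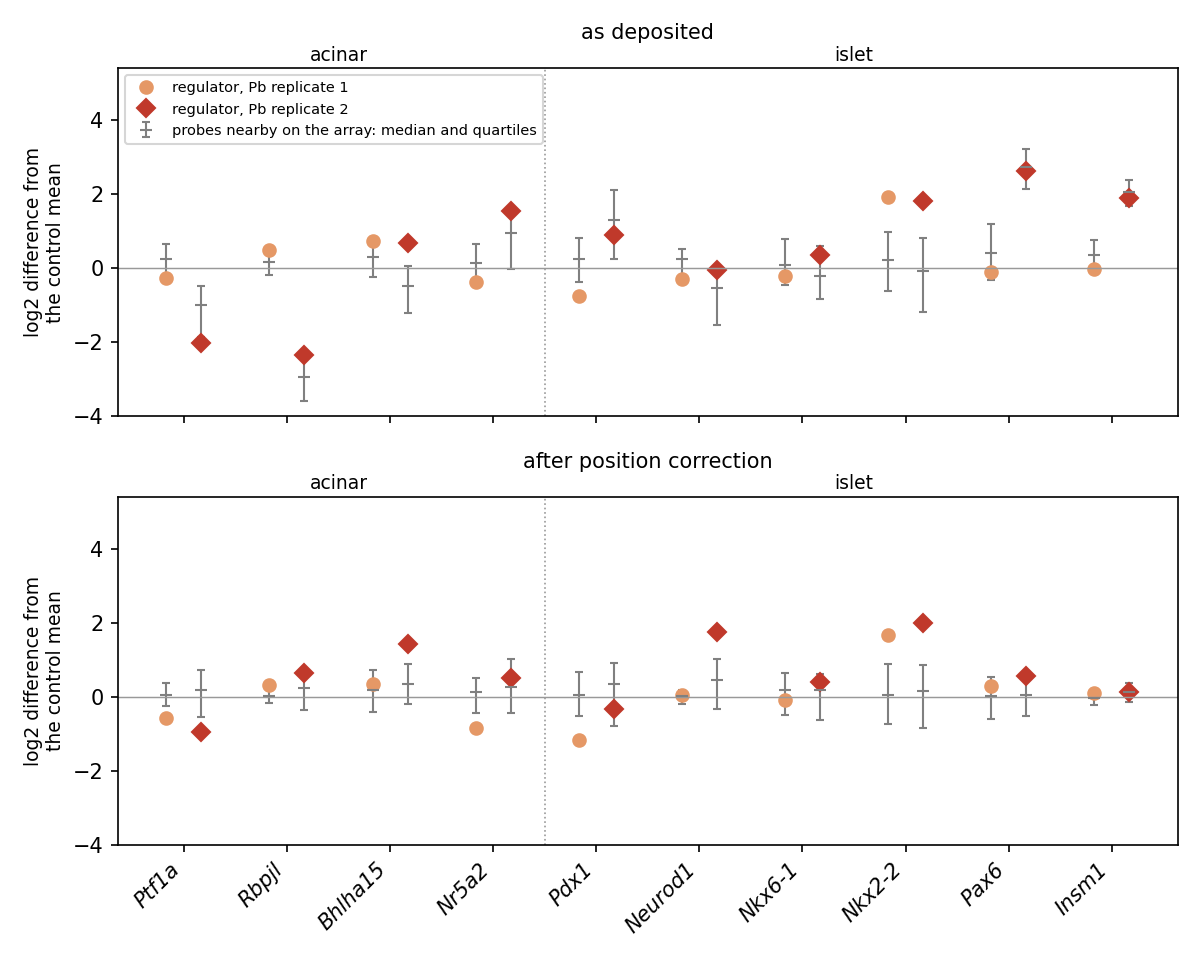
Log2 difference from the control mean (y axis) of each regulator (x axis) in both Pb arrays, as deposited (upper panel) and after position correction (lower panel); grey bars give the median and quartiles of 109 to 158 probes within 3 array rows and 0.75 of the regulator's log2 level. In Pb replicate 2 the nearby probes stood between -2.95 (Rbpjl) and 2.72 (Pax6) as deposited and between 0.04 and 0.46 after correction.

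No detection calls were in the table used, so the brightness of each regulator was set against 589 probes of olfactory and vomeronasal receptor genes, which the spleen is not known to use. These receptors had a median of -1.22 and -1.20 in the Pb arrays, against -1.22, -1.20 and -1.19 in the control arrays, with single probes as high as 6.34 to 6.61. For Rbpjl 91.0% and 93.4% of the receptor probes were dimmer in Pb spleens, against 88.8%, 90.8% and 90.3% in control spleens. For Neurod1 the shares were 67.1% and 88.8% in Pb spleens, against 72.5%, 67.4% and 63.7% in control spleens. Of the 10 regulators, 1 and 2 exceeded the 75th percentile of the receptors in Pb replicates 1 and 2, against 1 on each control array, and 0 exceeded the 95th percentile on any of the 5 arrays. For Ptf1a the shares were 32.8% and 26.7% in Pb spleens, against 43.5%, 51.1% and 47.0% in control spleens, and for Pdx1 5.60% and 16.98% in Pb spleens, against 26.15%, 15.45% and 16.64% in control spleens. Signals in this range do not separate a low transcript level from none.

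On the same arrays, pancreatic exocrine products were high in Pb spleens. Of 25 tested, 10 rose, 0 fell and 15 did not pass (limma adjusted p), and 21 of 28 measured were brighter on both Pb arrays than on every control, with a median log2 difference of 2.90. Among all probes tested 0.0572% were called higher, and 13% of all probes were brighter on both Pb arrays than on every control. The amylase gene Amy2a5 was at 3.41 and 4.54 in Pb spleens, against -3.30, -4.28 and -4.01 in control spleens (limma adjusted p = 0.00877). The carboxypeptidase gene Cpa1 was at 4.11 and 4.91 in Pb spleens, against -2.51, -1.91 and -2.98 in control spleens (adjusted p = 0.00877 in the same fit). For both genes every Pb value was far above every control value. The elastase gene Cela3b rose to 4.96 and 4.42 in Pb spleens, against -2.99, -1.51 and -1.71 in control spleens. The trypsin gene Try5 and the trypsin inhibitor gene Spink1 also rose. In the controls the probes of these 5 genes were no brighter than many receptor probes, with 2.89% to 51.8% of the receptors dimmer, so the sizes of their differences are not measured and the median over the list is a difference on this scale only. The granule protein gene Sycn, brighter in the controls, rose by 2.94. Of the 28 genes 20 and 19 exceeded the 75th percentile of the receptors in Pb spleens, against 8, 8 and 6 in control spleens. Erp27 (-0.26) and Serpini2 (-0.25) had the lowest differences. The filter used the mean of all 5 arrays, so high Pb values helped probes pass it. Among the called genes, Amy2a5 (-3.86), Try5 (-2.54), Cpa1 (-2.46), Cpb1 (-2.09) and Cela3b (-2.07) had control means under its level of -1.56. Position correction and the filter each decide the calls among exocrine products, since leaving out either left 0. The count was 4 with array weights, 16 with a trended and robust variance, 3, 3 and 4 when control replicate 1, 2 or 3 was left out, and 18 or 11 when Pb replicate 1 or 2 was left out. The number brighter than every control stayed between 21 and 24 of 28 under each alternative that left out Pb replicate 3. In Pb replicate 1 the median difference from the control mean was 0.07 over the 10 regulators and 2.67 over the exocrine products, and in Pb replicate 2 it was 0.54 and 3.11. In bulk tissue a higher share of a cell type and more RNA per cell cannot be told apart.

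Partner proteins through which the regulators act had no call. Rbpj, the general DNA-binding partner in PTF1, was at 2.07 and 2.08 in Pb spleens, against 2.23, 2.05 and 2.21 in control spleens. The E proteins Tcf12 (log2 difference -0.06), Tcf3 (-0.19) and Tcf4 (0.36), the Pdx1 cofactor family members Pbx2 (0.25), Meis1 (-0.37) and Meis2 (-0.19), and Rbpj (-0.09) made up the 7 tested, of which 0 passed and 0 had an unadjusted p under 0.05 (limma). These 7 had a median difference of -0.09, and lymphocytes also use several of them.

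Other pancreatic transcription factors also had no call, with 0 of 15 tested passing, 1 at an unadjusted p under 0.05 and a median log2 difference of 0.20 over 22 measured. That 1 was Sox9, a factor of duct and progenitor cells, at -0.60 and -0.15 in Pb spleens, against -1.21, -1.13 and -1.03 in control spleens (limma adjusted p = 0.621). The neuroendocrine factor Myt1 had the highest difference (1.00, groups overlapping), and Rfx6 (-0.49) and the endocrine progenitor factor Neurog3 (-0.42) the lowest. Gata4 (-0.36), Gata6 (0.20), Foxa2 (-0.22), Isl1 (-0.25), Mafa (0.20) and Xbp1 (0.03) overlapped between the groups. For Gata4, Gata6, Foxa2, Isl1, Neurog3 and Xbp1 the 2 Pb arrays lay on opposite sides of the control mean, and Rfx6 was at -0.09 in Pb replicate 1 and -0.90 in Pb replicate 2 relative to it.

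Islet products had no call either: 0 of 12 tested passed, 0 had an unadjusted p under 0.05 (limma), and the median log2 difference was 0.05 over 19 measured, of which 4 lay above all controls and 1 below. The shares over all probes were 13% above and 11.9% below. Glucagon (Gcg) was at -3.74 and -4.59 in Pb spleens, against -3.50, -2.32 and -1.87 in control spleens. Both Pb arrays lay below all controls, and its difference was the lowest (-1.60). Its probe was under the filter and dim on every array. Of the receptor probes 6.11% and 3.9% were dimmer in Pb spleens, against 7.47%, 26.15% and 34.13% in control spleens. Next lowest was the potassium channel gene Kcnj11 (-0.73). Its low value was that of Pb replicate 2 (-1.09, against 0.27 in Pb replicate 1 and a control mean of 0.32). The highest were Ucn3 (0.61) and the prohormone convertase gene Pcsk1 (0.54), whose high value was that of Pb replicate 2 (0.81, against -0.33 in Pb replicate 1). Somatostatin (Sst) was dim and lay above all controls, with a difference of 0.44. Probes of Ins1, Ins2 and Iapp were not analysed here.

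Genes of other cells that use these regulators were set beside them. Over all probes 13% lay above and 11.9% below all controls, and 7.23% of those tested had an unadjusted p under 0.05 (limma). Of the 12 neuronal genes measured, 2 lay above all controls and 0 of 8 tested passed, with 1 at an unadjusted p under 0.05 (limma). That was Snap25, at 1.39 and 1.93 in Pb spleens, against 1.10, 1.11 and 0.67 in control spleens (log2 difference 0.70, adjusted p = 0.621). Their summed linear level was 41.8 and 36.2 in Pb spleens, against 34.1, 34.1 and 30.6 in control spleens, most of it from the noradrenaline synthesis gene Dbh. Without Dbh the sum was 10.8 and 16.02 in Pb spleens, against 11.28, 10.29 and 10.4 in control spleens, high in Pb replicate 2 alone. As with Neurod1, the synapse gene Syp was highest in Pb replicate 2 (2.09, against 0.85 in Pb replicate 1). The extremes of the list were the neurofilament gene Nefl (0.84) and Syp (0.72) at the top and Syt1 (-0.12) and Stmn2 (-0.11) at the bottom, both with the Pb arrays on opposite sides of the control mean. Of the 10 plasma cell genes, 2 lay below all controls, 0 of 9 tested passed and 1 had an unadjusted p under 0.05, Sdc1 (log2 difference -0.50), while Jchain (-0.04) overlapped. The other gene below all controls was Pou2af1 (-0.42), and the highest differences were those of Tnfrsf17 (0.65) and Creld2 (0.14). Tnfrsf17 was under the filter and its groups overlapped. Its intensity in control replicate 2 was under 0 and had been raised to the floor. The summed level of the plasma cell genes was 293.8 and 187.0 in Pb spleens, against 252.5, 233.9 and 260.4 in control spleens, with Jchain as its brightest gene. Without Jchain it was 155.3 and 94.29 in Pb spleens, against 134.9, 127.0 and 135.5 in control spleens, low in Pb replicate 2 alone. Duct genes had 0 of 7 tested passing and 0 at an unadjusted p under 0.05 (limma), a median of -0.26 over 10 measured, Slc4a4 (1.02) and Cldn4 (0.39) highest and Cftr (-1.50) and Muc1 (-0.77) lowest, with Krt19 at -0.02. Cftr and Muc1 were low in Pb replicate 2 alone, where their deposited intensities were under 0 and had been raised to the floor, and in Pb replicate 1 they stood 0.43 and 0.13 above the control mean. Slc4a4 stood 0.21 above it in Pb replicate 1 and 1.83 in Pb replicate 2. Their summed level was 124.9 and 224.2 in Pb spleens, against 144.9, 147.1 and 161.1 in control spleens, nearly all of it from the carbonic anhydrase gene Car2. Without Car2 the sum was 7.226 and 8.266 in Pb spleens, against 7.523, 7.065 and 7.108 in control spleens. The part of these cells in the values of the regulators was not tested.

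**Figure D4:**
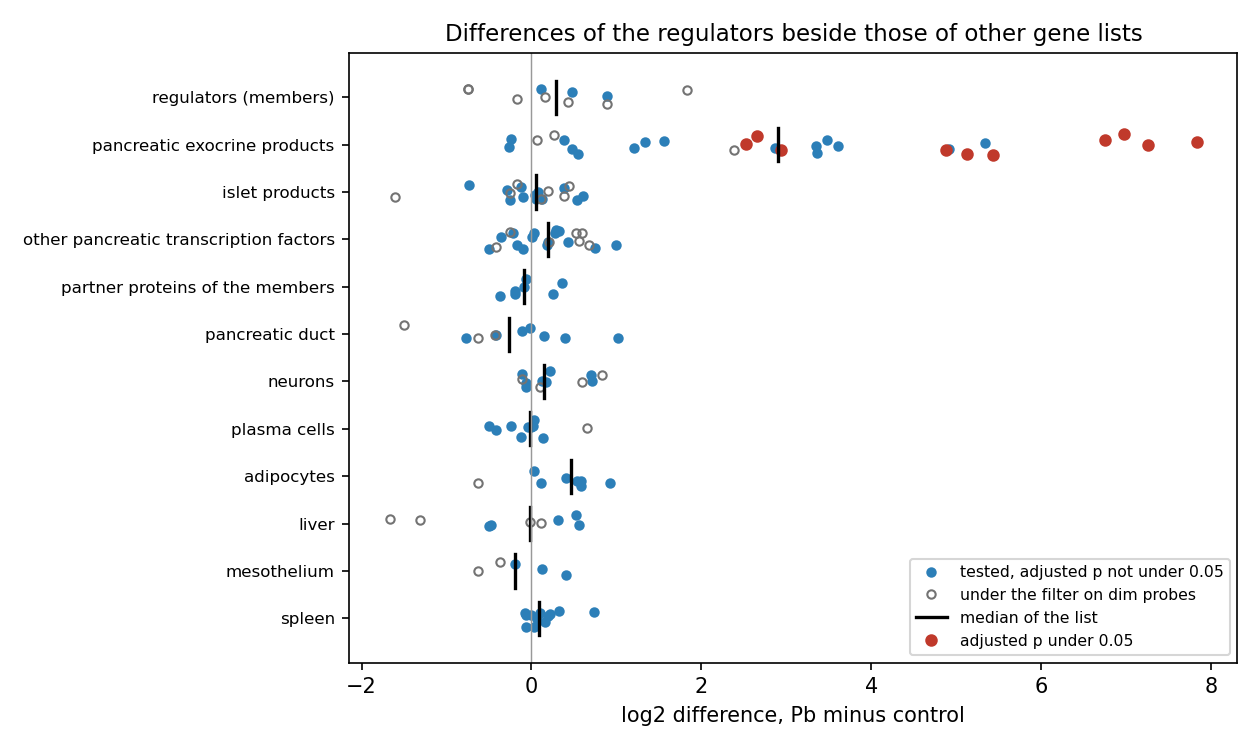
Log2 difference, Pb minus control (x axis), of every measured gene of each list (rows); red points passed an adjusted p of 0.05, blue points were tested and did not, open circles were under the filter on dim probes, and black bars are list medians. Calls appear only among the exocrine products, whose median is 2.90, against 0.29 for the 10 regulators and 0.05 for islet products.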

How the data were processed

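Spleen RNA of 6 mice was read on CodeLink arrays. The deposited table holds 1 linear probe intensity per array for 35587 probes. Array medians lay between 0.972 and 0.987, which may reflect scaling by the authors; scanner software, background correction and normalization are steps not given in the sources used here. Probes were named from the platform annotation (1 symbol only), and promoters come from RefSeq (GRCm38.p6).

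Probes with an identifier of 402000 or above and Pb replicate 3 were left out. Intensities at or under 0 were raised to the 1st percentile of positive values and set to log2. Each array's smooth deviation over array row, column and level was removed in 2 rounds (mgcv 1.9.3, bam, 40, 8 and 6 basis functions). limma 3.58.1 in R 4.3.3 tested probes with a mean at or above the 30th percentile, two-sided, with Benjamini-Hochberg adjustment. The fit, tested on simulated data, recovered known changes. Those changes were larger than the difference of any regulator and were placed only in probes above a set brightness. Recovery of small changes or of changes in dim probes was not tested. The drift simulated in Pb replicate 2 followed the array row alone. In the deposited values of that array, nearby probes had medians of -0.09 for Nkx2-2 (array row 27) and -2.95 for Rbpjl (array row 31). Removal of a drift that also varies with level was thus not tested.

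The members and lists, and the 5-array fit, were chosen with earlier results of these data known. All 10 members were named; each other list contributes set marker genes where measured and its 2 highest and 2 lowest differences, and any other gene was named after its values were seen. Alternatives covered correction, filter, low values, scaling, weights, variance, blocking and left-out arrays. The number of arrays limits the precision.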

Additional observations from a re-analysis of the deposited data

How the results depend on the processing

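Across 18 alternatives, the differences of the 10 regulators gave 180 comparisons, of which 179 stayed on their side of the threshold, 1 gained a call (Neurod1 without Pb replicate 1) and 0 reversed with a call. No regulator was called in the reported fit, so no call could be lost. The 7 regulators under the filter were tested in only 1 or 2 of the 18 alternatives, and untested comparisons were counted as staying. These counts thus say little on stability, and 14 uncalled differences changed sign. Ptf1a kept its sign in 18 of 18, between -1.14 and -0.55, and so did Nkx2-2, between 0.99 and 2.55. Bhlha15 (0.35 to 1.43) and Insm1 (0.04 to 1.16), whose groups overlapped, kept theirs in 18 of 18 as well. Rbpjl turned to -0.93 without position correction and to -2.34 in the 6 arrays as deposited, whose Pb replicate 3 did not follow the probes. With those 6 arrays 0 probes passed, 1 regulator lay above all controls in place of 2, and the median of the regulators was 0.65 in place of 0.29. Without position correction 0 probes passed and 1 regulator lay above. Of all probes 14 passed in the reported fit, 0 with no filter, 7 with array weights and 22 with a trended and robust variance. With 1 array left out they ranged from 4 to 2745, regulators past the threshold from 0 to 1, regulators above all controls from 2 to 6 and the median from 0.07 to 0.54. The probes numbered 2745 without Pb replicate 1 and 18 without Pb replicate 2, and 5, 4 and 6 without control replicates 1, 2 and 3. The 6 regulators above all controls were counted without Pb replicate 1. Same-numbered arrays were not paired by the labels, and their deviations had r = 0.029 and -0.0039. With the replicate block 11 probes and 0 regulators passed, 2 regulators lay above all controls, and the median was 0.19. The cause of these changes was not tested. Taking other probes of a gene was not run for the regulators, which have 1 probe each. Dim signal limits what can be said of the 7 regulators under the filter.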

Other observations

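Genes of other tissues near the spleen gave these values. For comparison, 13% of all probes lay above and 11.9% below all controls on both Pb arrays. An unadjusted p under 0.05 was reached by 7.23% of the probes tested (limma). Of 8 adipocyte genes measured 2 lay above all controls, 0 of 7 tested passed and 1 had an unadjusted p under 0.05 (limma), Thrsp with a log2 difference of 0.93, while Pparg was at 0.59, Cidec at 0.03 and Lep at -0.63. Relative to the control mean, Pparg was at 0.06 and 1.12 and Lep at -0.03 and -1.24 in Pb replicates 1 and 2. Adipoq was at 1.22 and 2.64 in Pb spleens, against 1.41, 2.09 and 1.09 in control spleens, so the groups overlapped. The median difference of the list was 0.13 in Pb replicate 1 and 0.99 in Pb replicate 2. Of 9 liver genes 3 lay above and 2 below all controls and 0 of 5 tested passed, with 2 at an unadjusted p under 0.05 (limma), Cyp2e1 (0.56) and Tat (0.53). Alb was at 0.12, and Ttr (-1.67) and Apoa1 (-1.32) had the lowest differences. Ttr was low in Pb replicate 2 alone, where its intensity was under 0 and raised to the floor, and stood 0.26 above the control mean in Pb replicate 1. Of 5 mesothelial genes 0 lay above all controls and 0 of 3 tested passed, with 0 at an unadjusted p under 0.05 (limma), and the differences ran from Krt8 (-0.63) and Upk3b (-0.37) to Wt1 (0.12) and Msln (0.41). In Pb replicate 1 Krt8 (-0.02), Upk3b (-0.01) and Msln (0.04) were close to the control mean. Among 12 spleen genes 0 passed and 1 had an unadjusted p under 0.05, the T cell gene Cd3e, at 2.13 and 2.25 in Pb spleens, against 1.53, 1.30 and 1.53 in control spleens (limma adjusted p = 0.621). Cd74 (0.33) came next, and Alas2 (-0.07) and Cd5l (-0.07) were lowest.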
